A study of Mus musculus with 18 samples.

Results

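Cortical thymic epithelial cells (cTEC) from Aire knockout (KO) mice were compared with cTEC from wild-type (WT) mice by RNA sequencing. The comparison rested on 3 KO and 3 WT libraries, chosen by their titles from 18 libraries of 6 groups. Of 23063 genes listed in each table, 16077 reached 0.1 RPKM (reads scaled by gene length and library size) in at least 3 of these 6 libraries and were tested. The KO mice carried the genotype label Aire KO and the WT mice the label WT, and both had the strain label B6.129S2-Airetm1.1Doi/J and an age of 6 to 8 weeks. Thymi were digested, stroma was enriched and cells were sorted by flow cytometry, with total RNA as the starting material. The labels do not say which antibodies defined the cTEC gate or whether replicates were separate mice, so p-values measure only the spread between these libraries. The 4 other groups, KO and WT medullary epithelium sorted as mTEClo and as mTEChi, serve here only to place the cTEC values.

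The thymic cortex is where immature T cells are tested for receptors that can recognise self-MHC, and cTEC carry this step out with a peptide supply of their own, made by a thymus-specific proteasome and by the proteases Prss16 and cathepsin L. The medulla then removes or diverts strongly self-reactive cells. Aire is a transcriptional regulator of mature medullary epithelium that switches on many genes typical of peripheral tissues, and cTEC are not known as a site of its action. Medullary epithelium also holds cells that resemble tuft cells of gut and airway and cells that resemble cornifying skin.

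The cortical label was checked first. Psmb11, the cortex-specific subunit of the thymoproteasome, had 10.1, 20.5 and 11 RPKM in KO cTEC, against 21.8, 20.5 and 11.3 RPKM in WT cTEC, and the group means in the medullary populations were between 0.727 and 1.84 RPKM. Prss16, the thymus-specific serine protease, had 170, 337 and 188 RPKM in KO cTEC, against 335, 321 and 187 RPKM in WT cTEC, with medullary group means of 18.2 to 34 RPKM. Both genes thus stood above the medullary means in all 6 libraries. Markers of immature medullary epithelium were nevertheless high in the same libraries: the keratin Krt5 had 874, 1041 and 1054 RPKM in KO cTEC, against 795, 759 and 869 RPKM in WT cTEC, and averaged 1365 RPKM in KO mTEClo and 1855 RPKM in WT mTEClo. The list did not share the higher KO values of Krt5. Of its 9 members tested, 4 lay wholly below the WT libraries in KO cTEC and 2 wholly above, beside 12.1% and 17.3% of all genes tested. The list's median log2 fold change, KO minus WT, was -0.1. Xist and 4 Y-linked genes were measured together in each of the 6 libraries.

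KO replicate 1 stood apart. On the first principal component of the 6 libraries, which held 63.5% of their variance, the KO libraries scored -83, -33.8 and -17.8 and the WT libraries 59.2, 32.5 and 42.9. Each of the 14 mature medullary markers was highest in KO replicate 1 among the KO libraries, compared with 5831 of the 16077 genes tested. The summed RPKM of these markers was 720, 386 and 285 in KO cTEC, against 131, 201 and 251 in WT cTEC. The same sum averaged 2670 in KO mTEChi and 1991 in WT mTEChi. Because of this, counts of called genes are given for all 3 KO libraries and for KO replicates 2 and 3 alone, and a named gene is said to lose its call where the second fit did not call it. All the same, KO replicates 2 and 3 also lay above every WT library in this sum. The part of medullary cells in the differences below was not tested, and in sorted bulk samples more cells of a type and more RNA per cell cannot be told apart.

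**Figure D1:**
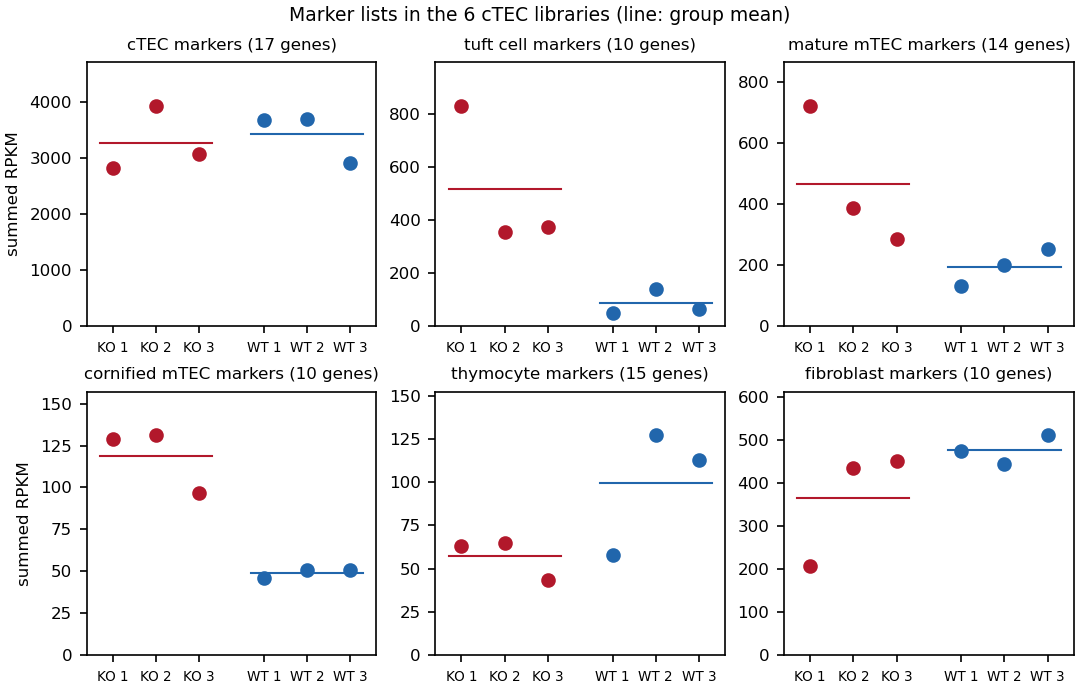
Summed RPKM of 6 marker lists (y axes, from 0) in the KO and WT cTEC libraries, with a line at each group mean. Tuft cell, mature medullary and cornified sums are higher in all 3 KO libraries than in any WT library, the cTEC sums of the groups overlap, and KO replicate 1 has the highest mature medullary sum, 720, and the lowest fibroblast sum, 207.

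Sums of other marker lists differed in part. Dendritic cell and macrophage markers summed to 175, 140 and 172 RPKM in KO cTEC, against 37.1, 93.2 and 84.8 RPKM in WT cTEC, and B cell markers to 28.5, 12.8 and 11 RPKM in KO cTEC, against 2.61, 5.29 and 3.35 RPKM in WT cTEC. Neither sum overlapped between the groups, but the lysozyme gene Lyz2 made up most of the dendritic cell and macrophage sum in KO cTEC, and that list's median log2 fold change was 0.39, and -0.03 with KO replicates 2 and 3. Summed thymocyte markers were 63.1, 64.8 and 43.4 RPKM in KO cTEC, against 57.9, 127 and 113 RPKM in WT cTEC, and WT replicate 1 lay inside the KO range. Fibroblast markers summed to 207, 435 and 452 RPKM in KO cTEC, against 475, 444 and 511 RPKM in WT cTEC. Haemoglobin genes Hba-a1, Hba-a2 and Hbb-b2 were listed at 0 in all 6 libraries. Aligned bases were 9.83, 9.12 and 11.3 Gb in the KO libraries and 11.4, 11 and 10.7 Gb in the WT libraries.

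Aire itself (chromosome 10, 78030022 to 78043610, mm10) was higher in the KO. It had 95.6, 35.9 and 27 RPKM in KO cTEC, against 2.09, 3.95 and 7.39 RPKM in WT cTEC. Every KO library was above every WT library, and KO replicate 1 was the highest. The log2 fold change on the log2(RPKM + 0.1) scale, used for every fold change here, was 3.49 (SE 0.54, limma with Benjamini-Hochberg adjusted p = 0.013), and 2.95 (adjusted p = 0.016) with KO replicates 2 and 3. Without WT replicate 1 it was 3.04, with an adjusted p of 0.055. A value per gene cannot separate the deleted part of the allele from the rest, so this level does not check the knockout. Group means in the medulla were 1073 RPKM in KO mTEChi and 677 RPKM in WT mTEChi, and 23.6 RPKM in KO mTEClo and 9.9 RPKM in WT mTEClo. Every cTEC library, KO replicate 1 included, was thus well below the mTEChi means.

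Across all genes tested, far more were called higher than lower in KO cTEC. At an adjusted p under 0.05, 980 genes (6.1% of those tested) rose and 99 genes (0.616%) fell, 851 and 41 of them by 2-fold or more. None of these genes overlapped between the 3 KO and 3 WT libraries, where 17.3% of all genes tested lay wholly higher and 12.1% wholly lower. The median log2 fold change of all genes was -0.02. With KO replicates 2 and 3, 715 genes (4.45%) rose and 79 (0.491%) fell. The 2 fits shared 687 rises, 70.1% of the first list and 96.1% of the second, and 54 falls, 54.5% and 68.4% of the lists. Another scaling changed the balance: quantile normalization gave 774 rises and 210 falls and centring on housekeeping genes 788 and 222, which put 78.7% and 78% of the calls on the higher side in place of 90.8%. The counts also leaned on single libraries. Without WT replicate 1 there were 123 rises and 14 falls, without WT replicate 3 there were 102 and 3, without WT replicate 2 there were 633 and 49, without KO replicate 2 there were 497 and 22, and without KO replicate 3 there were 1190 and 257.

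**Figure D2:**
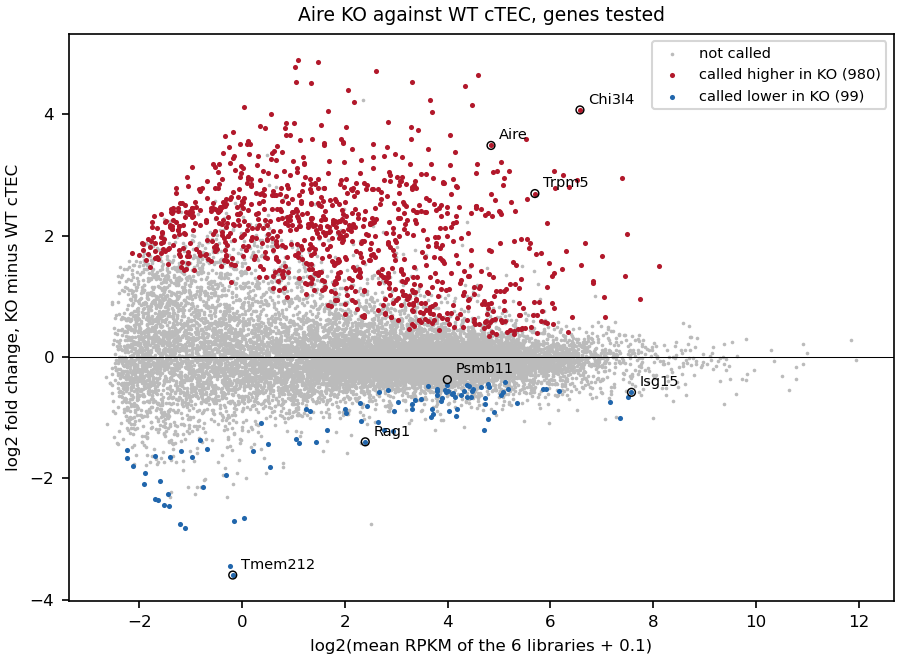
Log2 fold change, KO minus WT cTEC, against log2 of the mean RPKM of the 6 libraries plus 0.1, for each gene tested. Genes called higher in KO (980) spread over low and middle levels, while those called lower (99) mostly lie near the axis, and Chi3l4 combines a high level with a log2 fold change of 4.07.

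The genes that rose were mostly low in WT cTEC and mostly higher in KO replicate 1 than in its fellow KO libraries. Their median level was 8.28, 4.56 and 4.07 RPKM in KO cTEC, against 0.885, 1.71 and 1.23 RPKM in WT cTEC. KO replicate 1 held the highest KO value in 896 of the 980, compared with 5831 of the 16077 genes tested. The medians of their group means were 8.82 RPKM in KO mTEClo, 5.32 RPKM in WT mTEClo, 11.9 RPKM in KO mTEChi and 11.6 RPKM in WT mTEChi. For 953 of the 980, the mean of KO mTEClo or of KO mTEChi exceeded that of KO cTEC, which held for 9851 of all genes tested. The 99 genes that fell ran the other way: KO replicate 1 had the lowest KO value in 80 of them, compared with 7275 of all genes tested, and 84 had both KO medullary means below the WT cTEC mean, compared with 6965. Of the 79 genes that fell with KO replicates 2 and 3, KO replicate 1 had the lowest KO value in 50 and the highest in 28.

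**Figure D3:**
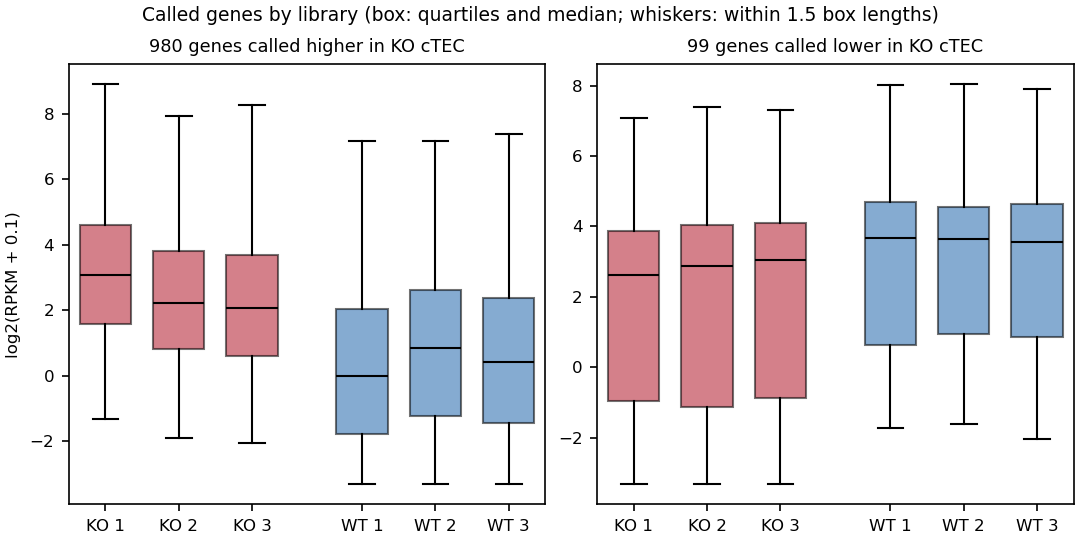
Log2(RPKM + 0.1) of the 980 genes called higher and the 99 called lower, by library (box: quartiles and median; whiskers reach values within 1.5 box lengths). Among the genes called higher the median is highest in KO replicate 1, at 8.28 RPKM, and lowest in WT replicate 1, at 0.885 RPKM, and the boxes of the genes called lower overlap.

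Tuft cell genes rose as a whole list, beside 6.1% of all genes tested called higher. All 10 members measured, among them the ion channel Trpm5, the actin-binding protein Avil, the transcription factor Pou2f3 and the cytokine Il25, were called higher, 9 of them also with KO replicates 2 and 3, and the list's median log2 fold change was 2.69 against -0.02 for all genes. Their summed level was 829, 353 and 372 RPKM in KO cTEC, against 49.9, 141 and 65 RPKM in WT cTEC, and averaged 1485 RPKM in KO mTEClo and 708 RPKM in WT mTEClo. The groups did not overlap, and WT replicate 2 was the highest WT library. These calls were fragile: 2 of 10 were past the threshold without WT replicate 1, and 0 without WT replicate 3.

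Il25, the cytokine by which tuft cells call in type 2 immune cells, changed the most in that list. It had 33.7, 15.4 and 19.2 RPKM in KO cTEC, against 1.41, 4.02 and 2.05 RPKM in WT cTEC (log2 fold change 3.19, SE 0.398, limma adjusted p = 0.0098; 2.87 with KO replicates 2 and 3, adjusted p = 0.011). Trpm5, the calcium-gated channel of taste and tuft cells, had 141, 62.9 and 64.5 RPKM in KO cTEC, against 8.57, 23.7 and 10.2 RPKM in WT cTEC (2.69, SE 0.425, adjusted p = 0.014). In both genes every KO library was above every WT library, KO replicate 1 was the highest and WT replicate 2 the highest of the WT. Chat, the acetylcholine-synthesising enzyme, had 18.1, 8.85 and 8.48 RPKM in KO cTEC, against 0.893, 3.1 and 0.92 RPKM in WT cTEC (2.92, SE 0.487, adjusted p = 0.016). Plcb2, the phospholipase of the taste pathway, was the member not called with KO replicates 2 and 3 (1.67, adjusted p = 0.072).

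Chitinase-like and type 2 immune genes rose in most members. Of 8 members tested, 6 rose, 5 of them also with KO replicates 2 and 3, and the list's median log2 fold change was 2.94. Of all genes tested, 6.1% were called higher. Like the other lists, this one was chosen with earlier results of these data known, so its count is a description. Chi3l4 and Il13 are also among the 12 largest rises. Chi3l4 and Chi3l3 encode the secreted chitinase-like proteins Ym2 and Ym1, which lack chitinase activity and mark type 2 responses, and lie side by side on chromosome 3. The RefSeq windows just upstream of their starts (RefSeq names Chil3 and Chil4, GRCm38.p6, minus strand, 250 bases each) are shown because the neighbours changed together and are near copies. Aligned, the windows had 201 identical bases in 223 columns, 90.1%, with 2 gap columns. Capitals mark a match to TTCNNNGAA, the form of site that STAT proteins bind, in both windows, and the TATA box TATAAA in that of Chi3l4. The first match starts 172 bases before the start of Chi3l3 and 200 bases before that of Chi3l4, and the TATA box starts 31 bases before the start of Chi3l4, with none in the Chi3l3 window. The Chi3l3 window, however, ends inside the stretch that lines up with this TATA box. These windows therefore cannot show whether the genes differ in the box, and the distances depend on the annotated starts.
Chi3l3 (chr3:106167565-106167814): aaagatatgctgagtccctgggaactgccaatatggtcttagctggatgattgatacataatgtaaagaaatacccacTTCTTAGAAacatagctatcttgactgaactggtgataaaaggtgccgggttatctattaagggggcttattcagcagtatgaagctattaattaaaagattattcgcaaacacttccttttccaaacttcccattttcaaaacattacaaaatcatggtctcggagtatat
Chi3l4 (chr3:106219480-106219729): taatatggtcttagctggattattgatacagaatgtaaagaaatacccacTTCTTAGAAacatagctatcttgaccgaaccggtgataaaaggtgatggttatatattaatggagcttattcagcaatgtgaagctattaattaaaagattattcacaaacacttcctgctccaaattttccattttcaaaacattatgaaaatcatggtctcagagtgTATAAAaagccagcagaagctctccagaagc
Searched on both strands, the STAT form was found in 7.02% and the TATA box in 12.4% of the 32851 promoter windows of the table, and the matches shown do not overlap each other. The same form with a spacer of 4 bases in place of 3 was also searched, had no match in either window and was found in 5.85% of all. Such matches describe letters, not binding.

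Chi3l4 had 190, 196 and 154 RPKM in KO cTEC, against 12.6, 9.47 and 9.83 RPKM in WT cTEC. The 3 KO libraries were alike, KO replicate 1 was not the highest, and the groups were far apart (log2 fold change 4.07, SE 0.143, limma adjusted p = 4.1e-05; 4.03 with KO replicates 2 and 3, adjusted p = 0.00023). In the medulla it averaged 293 RPKM in KO mTEClo and 32.1 RPKM in WT mTEClo, and 23.4 RPKM in KO mTEChi and 37.7 RPKM in WT mTEChi. Chi3l3 had 62.8, 55.8 and 46.5 RPKM in KO cTEC, against 7.13, 9.17 and 4.02 RPKM in WT cTEC, again with no overlap (3.07, SE 0.274, adjusted p = 0.0059). How the authors' counting split reads between these near copies is not given in the sources used here, so the division of the signal between them is uncertain. Chi3l1, a chitinase-like relative elsewhere in the genome, had 29.3, 13.4 and 8.76 RPKM in KO cTEC, against 1.52, 4.61 and 1.26 RPKM in WT cTEC (2.8, SE 0.548, adjusted p = 0.025), and here KO replicate 1 was the highest.

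Il13, a type 2 cytokine, had 40.8, 19.5 and 13.7 RPKM in KO cTEC, against 0.861, 1.34 and 1.69 RPKM in WT cTEC (log2 fold change 4.04, SE 0.396, limma adjusted p = 0.0062; 3.6 with KO replicates 2 and 3, adjusted p = 0.0043). Its level was highest in KO replicate 1, and its means were 366 RPKM in KO mTEChi and 96.5 RPKM in WT mTEChi. Ctla4, the inhibitory receptor better known from T cells, had 21.3, 12.4 and 8.51 RPKM in KO cTEC, against 0.537, 2.36 and 1.29 RPKM in WT cTEC (3.35, SE 0.502, adjusted p = 0.013). It averaged 83.3 RPKM in KO mTEChi and 5.78 RPKM in WT mTEChi. Il33, an alarmin of epithelium and stroma, pointed the other way without a call, at 26.5, 38.3 and 59.7 RPKM in KO cTEC, against 70.3, 66.5 and 73.8 RPKM in WT cTEC (-0.83, adjusted p = 0.093). In this list 4 members were past the threshold without WT replicate 1 and 3 without WT replicate 3.

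Genes of mature medullary epithelium rose in part, beside 6.1% of all genes tested called higher. Of 14 markers tested, 5 were called higher, Aire, Fezf2, Cldn4, Spib and Hdc, and the same number with KO replicates 2 and 3, with a list median of 1.39 for 3 KO libraries and 1.01 for KO replicates 2 and 3. Fezf2, a transcription factor that drives tissue-restricted antigens apart from Aire, had 31.9, 19.2 and 13.4 RPKM in KO cTEC, against 4.35, 7.02 and 5.74 RPKM in WT cTEC (log2 fold change 1.83, SE 0.306, limma adjusted p = 0.016). Hdc, the histamine-synthesising enzyme, had 57.5, 21.4 and 17.1 RPKM in KO cTEC, against 2.41, 4.27 and 5.54 RPKM in WT cTEC (2.81, SE 0.461, adjusted p = 0.015). Both were highest in KO replicate 1, and every KO library was above every WT library. The costimulatory ligands were not called: Cd80 had 21.3, 8.81 and 6.15 RPKM in KO cTEC, against 1.5, 3.98 and 5.76 RPKM in WT cTEC (1.65, adjusted p = 0.12), and Cd86 overlapped between the groups. Ciita, the master regulator of MHC class II, had 31.9, 30.8 and 28.9 RPKM in KO cTEC and 43, 32 and 37.9 RPKM in WT cTEC (-0.29, adjusted p = 0.19). Without WT replicate 1, 1 marker of the 14 was past the threshold, and 2 without WT replicate 3.

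Cornified-layer genes showed a rise that did not follow KO replicate 1. Ivl, Sbsn, Spink5, Asprv1 and Dmkn, 5 of 9 members tested, were called higher with 3 KO libraries and with KO replicates 2 and 3, at a median log2 fold change of 1.32 in both fits. The share of all genes tested that was called higher was 6.1% with 3 KO libraries. The summed level of the list was 129, 131 and 96.5 RPKM in KO cTEC, against 46.2, 50.5 and 51 RPKM in WT cTEC. KO replicate 1 was the highest KO library for 3 of the 9 members, compared with 5831 of the 16077 genes tested. Unlike the tuft cell calls, 5 members passed the threshold without each library in turn, except that 6 did without KO replicate 3. Spink5, a skin protease inhibitor, had 25.2, 25 and 19.2 RPKM in KO cTEC, against 4.71, 7.4 and 7.18 RPKM in WT cTEC (1.85, SE 0.196, limma adjusted p = 0.0066). Sbsn, suprabasin, had 18, 19.2 and 16.9 RPKM in KO cTEC, against 7.21, 6.17 and 8.25 RPKM in WT cTEC (1.32, SE 0.132, adjusted p = 0.0062). In both genes the KO libraries were within a narrow band above all WT libraries. Krt1 and Krt10, the keratins of the skin's spinous layer, overlapped between the groups, with log2 fold changes of -0.17 and 0.08.

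The largest rises named by size included further skin genes. Sprr4, a cornified-envelope precursor, had 3.75, 11.3 and 0.967 RPKM in KO cTEC, against 0, 0.0921 and 0 RPKM in WT cTEC (log2 fold change 4.86, SE 0.779, limma adjusted p = 0.014). Crct1, a cysteine-rich product of the epidermal gene complex, had 0.925, 11.2 and 2.48 RPKM in KO cTEC, against 0.0599, 0.0297 and 0.0205 RPKM in WT cTEC (4.51, SE 0.765, adjusted p = 0.017). KO replicate 2 was highest for both, and because the WT levels are below the pseudocount the size of these changes depends on it: with a pseudocount of 1 they were 2.24 and 2.06, and neither was called. Calm4, a calmodulin-like protein of differentiating skin, was steadier, with 15, 11.1 and 8.74 RPKM in KO cTEC, against 0.18, 0.59 and 0.321 RPKM in WT cTEC (4.72, SE 0.358, adjusted p = 0.0034). Sprr2d, another envelope precursor, had 2.67, 1.72 and 1.18 RPKM in KO cTEC, against 0, 0 and 0.0216 RPKM in WT cTEC (4.12, adjusted p = 0.0059). Its fold also depends on the pseudocount, and with a pseudocount of 1 Sprr2d had 1.47, still called.

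Among the other named rises, Skint2, a relative of the thymic selecting molecule Skint1, had 59.1, 35.3 and 22.1 RPKM in KO cTEC, against 0.885, 2.03 and 1.98 RPKM in WT cTEC (log2 fold change 4.46, SE 0.403, limma adjusted p = 0.0059). Calcb, the precursor of a calcitonin gene-related peptide, had 69.4, 35 and 21.3 RPKM in KO cTEC, against 1.02, 2.48 and 3.07 RPKM in WT cTEC (4.16, SE 0.487, adjusted p = 0.0088). Dnmt3l, a cofactor of DNA methyltransferases, had 15.6, 5.6 and 4.41 RPKM in KO cTEC, against 0.378, 0.203 and 0.345 RPKM in WT cTEC (4.2, SE 0.461, adjusted p = 0.0072). In these 3 genes KO replicate 1 was the highest and every KO library was above every WT library. Dnmt3l spans 78042287 to 78063615 on chromosome 10 and overlaps the interval of Aire. Without strand, signal in the shared part cannot be assigned to either gene. Ceacam10, Spock3 and Ripply2 had log2 fold changes of 4.41, 4.23 and 4.05. With KO replicates 2 and 3 the rule added Gc, the vitamin D-binding protein, at 0.952, 10.2 and 1.03 RPKM in KO cTEC, against 0.0806, 0.0622 and 0.144 RPKM in WT cTEC (4.14, adjusted p = 0.035).

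**Figure D4:**
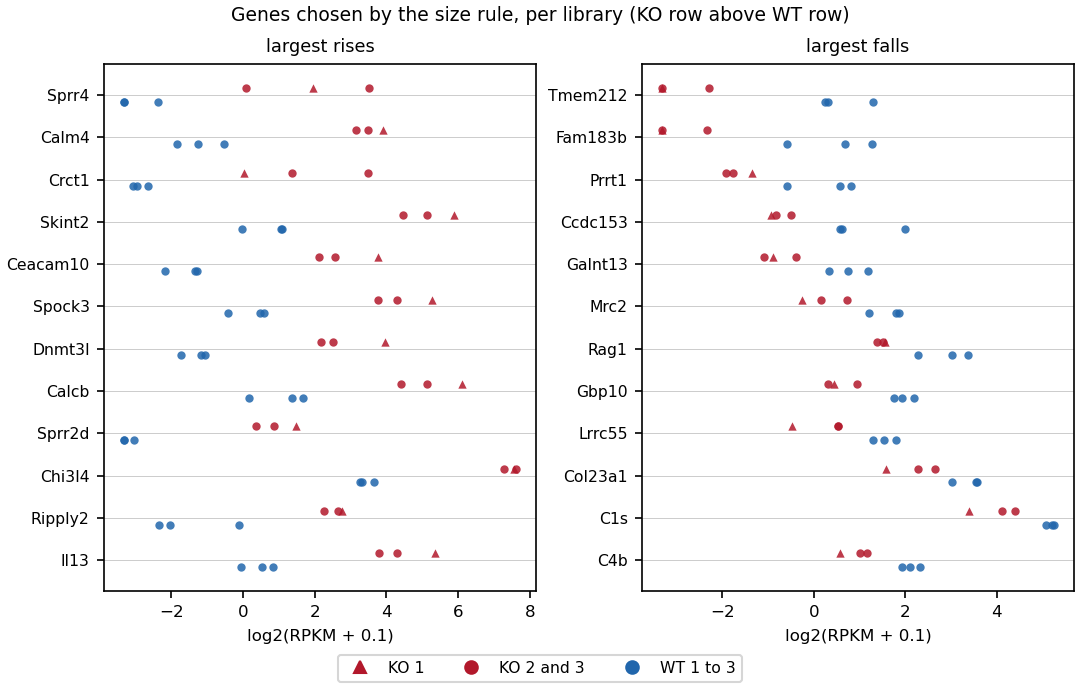
Log2(RPKM + 0.1) in each cTEC library for the 12 largest rises and 12 largest falls, with the KO row above the WT row of each gene and KO replicate 1 as a triangle. The groups do not overlap in any of these genes, as the rule required, and Chi3l4 has the tightest KO cluster of the rises, 154 to 196 RPKM.

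Peripheral-tissue antigens were split by their known dependence on Aire. The shares of all genes tested were 6.1% called higher and 0.616% called lower. Of 8 antigens known to be made without Aire, 7 were tested and 4 rose (2 of them with KO replicates 2 and 3), with a list median log2 fold change of 2.53. Without KO replicate 2, WT replicate 1 or WT replicate 3, 1 of the 7 was called, and without WT replicate 2 there were 2. Csn2, the milk protein beta-casein, had 147, 60.1 and 48.8 RPKM in KO cTEC, against 3.23, 7.73 and 9.44 RPKM in WT cTEC (3.59, SE 0.484, limma adjusted p = 0.012; 3.11 with KO replicates 2 and 3, adjusted p = 0.01). KO replicate 1 was highest, and the gene averaged 1287 RPKM in KO mTEChi and 720 RPKM in WT mTEChi. Of 18 antigens known to need Aire, such as Ins2, Sst and Mup4, 4 passed the level filter and 0 were called by limma, as with KO replicates 2 and 3; without WT replicate 1, 1 was called lower. S100a8, an antimicrobial calcium-binding protein, had 5.68, 1.6 and 2.64 RPKM in KO cTEC, against 3.89, 4.34 and 1.17 RPKM in WT cTEC (0.09, adjusted p = 0.95), whereas it averaged 11.5 RPKM in KO mTEChi and 222 RPKM in WT mTEChi. Spt1, a salivary protein, had 0.0316, 0.0357 and 0.078 RPKM in KO cTEC, against 0.117, 1.02 and 1.01 RPKM in WT cTEC (-2.14, adjusted p = 0.092), and averaged 0.298 RPKM in KO mTEChi and 87 RPKM in WT mTEChi.

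Epithelial adhesion genes rose in part, beside 6.1% of all genes tested called higher. Of 18 tested, 4 tight-junction genes rose in both fits, Cldn3, Cldn4, Cldn7 and Ocln, and the list's median was 0.07. Cldn4 had 93.7, 45 and 54.8 RPKM in KO cTEC, against 8.4, 12.4 and 10.7 RPKM in WT cTEC (log2 fold change 2.55, SE 0.264, limma adjusted p = 0.0062). Cldn7 had 58.3, 24.2 and 28.2 RPKM in KO cTEC, against 4.77, 9.38 and 6.13 RPKM in WT cTEC (2.38, SE 0.351, adjusted p = 0.013). The groups did not overlap in either claudin, and KO replicate 1 was highest. By contrast, Cldn1 had 40.9, 50.6 and 47.3 RPKM in KO cTEC, against 56.7, 59.1 and 57 RPKM in WT cTEC (-0.32, adjusted p = 0.11), and E-cadherin, Cdh1, overlapped (-0.08). Without WT replicate 1 or WT replicate 3, 2 of the 18 were past the threshold.

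NF-kB pathway genes and cytokines gave a few calls each, beside 6.1% of all genes called higher and 0.616% lower. Of 16 genes of the NF-kB and TNF superfamily list, 3 rose in both fits, the cytokine Tnf and the feedback inhibitors Tnfaip3 and Nfkbia, and none of the 3 was past the threshold without WT replicate 1 or without WT replicate 3. Tnfaip3 had 119, 66.3 and 68.1 RPKM in KO cTEC, against 30.6, 38.6 and 41.4 RPKM in WT cTEC (log2 fold change 1.15, SE 0.231, limma adjusted p = 0.027). Of 18 cytokines and growth factors, 2 rose, Tslp and Fgf10, and 1 fell; without WT replicate 1 or WT replicate 3 none of the list was called, without WT replicate 2 there was 1 rise, and without KO replicate 2 there were 1 rise and 0 falls. Tslp, an epithelial cytokine that favours type 2 immunity, had 5.43, 3.65 and 1.98 RPKM in KO cTEC, against 0.498, 0.815 and 0.296 RPKM in WT cTEC (2.55, SE 0.434, adjusted p = 0.017). The groups were apart in both genes. Bmp7, a bone morphogenetic protein, was the member of the cytokine list that fell, with 13.8, 16.1 and 18.1 RPKM in KO cTEC, against 27.8, 23.1 and 25 RPKM in WT cTEC (-0.66, SE 0.127, adjusted p = 0.023). Sirt1, a deacetylase reported to act on Aire, was the single call among 19 Aire partners, with 38.3, 22.8 and 23.8 RPKM in KO cTEC, against 12.1, 14.9 and 15.9 RPKM in WT cTEC (0.95, SE 0.207, adjusted p = 0.036). The Sirt1 call was lost with housekeeping centring, with no filter, and without KO replicate 2 or any of WT replicates 1, 2 and 3.

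The cortical programme itself gave no call in the fits of cTEC libraries. Of 17 cTEC markers, 0 were called in either direction with 3 KO libraries and 0 with KO replicates 2 and 3. The list medians were -0.26 and -0.11. Since 6.1% of all genes tested were called higher and 0.616% lower, a list of 17 without a call is near the general share. With all 18 libraries in 1 fit, 1 of the 17 was called higher. Foxn1, the transcription factor that makes thymic epithelium, had 31.1, 33.6 and 28.1 RPKM in KO cTEC, against 36.6, 34.9 and 28.5 RPKM in WT cTEC (log2 fold change -0.1, SE 0.123, limma adjusted p = 0.66). Ctsl, cathepsin L, had 665, 1221 and 909 RPKM in KO cTEC, against 1072, 1203 and 883 RPKM in WT cTEC (-0.21, SE 0.266, adjusted p = 0.69). Dll4, the Notch ligand that commits progenitors to the T lineage, had 3.85, 5.9 and 2.7 RPKM in KO cTEC, against 6.1, 5.56 and 3.38 RPKM in WT cTEC (-0.29, SE 0.32, adjusted p = 0.64). The groups overlapped in these 3 genes, and KO replicate 1 had the lowest KO value for 10 of the 17 markers, compared with 7275 of the 16077 genes tested. Ccrl1, an atypical chemokine receptor that scavenges Ccl25, was the member with the largest log2 change, at 117, 202 and 202 RPKM in KO cTEC, against 272, 231 and 251 RPKM in WT cTEC (-0.57, adjusted p = 0.16; -0.31 with KO replicates 2 and 3), and its groups did not overlap. Krt8 pointed upward without a call, at 500, 467 and 429 RPKM in KO cTEC, against 410, 349 and 355 RPKM in WT cTEC (0.33, adjusted p = 0.21). A p above the threshold does not show that these levels were equal.

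Antigen processing and presentation were measured at high levels with no call in the fit of 3 KO libraries. It held for 9 proteasome genes, 13 genes of MHC class I and peptide transport, 11 of MHC class II presentation and 16 of lysosome and autophagy, where list medians ran from -0.08 to 0.1. Cd74, the invariant chain, had 3880, 3900 and 3868 RPKM in KO cTEC, against 4220, 3708 and 4198 RPKM in WT cTEC (log2 fold change -0.06, SE 0.336). Psmb9, a subunit of the immunoproteasome, had 132, 183 and 148 RPKM in KO cTEC, against 154, 150 and 147 RPKM in WT cTEC (0.03, SE 0.134). KO replicate 2 was highest for Psmb9, and the groups overlapped in both genes. With KO replicates 2 and 3, H2-Oa, a regulator of peptide loading, was called higher (0.42, limma adjusted p = 0.036), at 71.1, 51 and 45.4 RPKM in KO cTEC, against 36.1, 35.1 and 36.4 RPKM in WT cTEC. Lists of 15 chemokines, 12 Notch genes and 16 cell cycle genes also gave 0 calls, and 20 Wnt and BMP genes gave 1, the BMP antagonist Grem1 (2.2, adjusted p = 0.029). Of all genes tested, 6.1% were called higher. The Grem1 call was lost with a pseudocount of 1, with no filter, and without KO replicate 2 or any of WT replicates 1, 2 and 3. For the cell cycle list, quantile normalization and housekeeping centring each gave 1 call lower.

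Interferon-stimulated genes leaned lower. Of 21 tested, 2 fell in both fits, Isg15 and Rtp4, beside 0.616% of all genes called lower with 3 KO libraries. In KO cTEC 15 members lay wholly below the WT libraries (12.1% of all genes did). The list's median was -0.36 (-0.33 with KO replicates 2 and 3). Their summed level was 1148, 1323 and 1283 RPKM in KO cTEC, against 1645, 1612 and 1770 RPKM in WT cTEC, and averaged 1253 RPKM in KO mTEClo and 2002 RPKM in WT mTEClo. Isg15, a ubiquitin-like protein induced by interferon, had 135, 169 and 155 RPKM in KO cTEC, against 237, 208 and 242 RPKM in WT cTEC (log2 fold change -0.58, SE 0.126, limma adjusted p = 0.035). Rtp4, an interferon-induced chaperone, had 49.5, 66.5 and 60.2 RPKM in KO cTEC, against 82.4, 89.6 and 85.5 RPKM in WT cTEC (-0.56, SE 0.122, adjusted p = 0.036). Neither gene overlapped between the groups, and KO replicate 1 was the lowest. The number called was sensitive: 6 fell with quantile normalization, 8 with housekeeping centring, 1 without KO replicate 2, 1 without KO replicate 3, and 0 without any of WT replicates 1, 2 or 3.

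**Figure D5:**
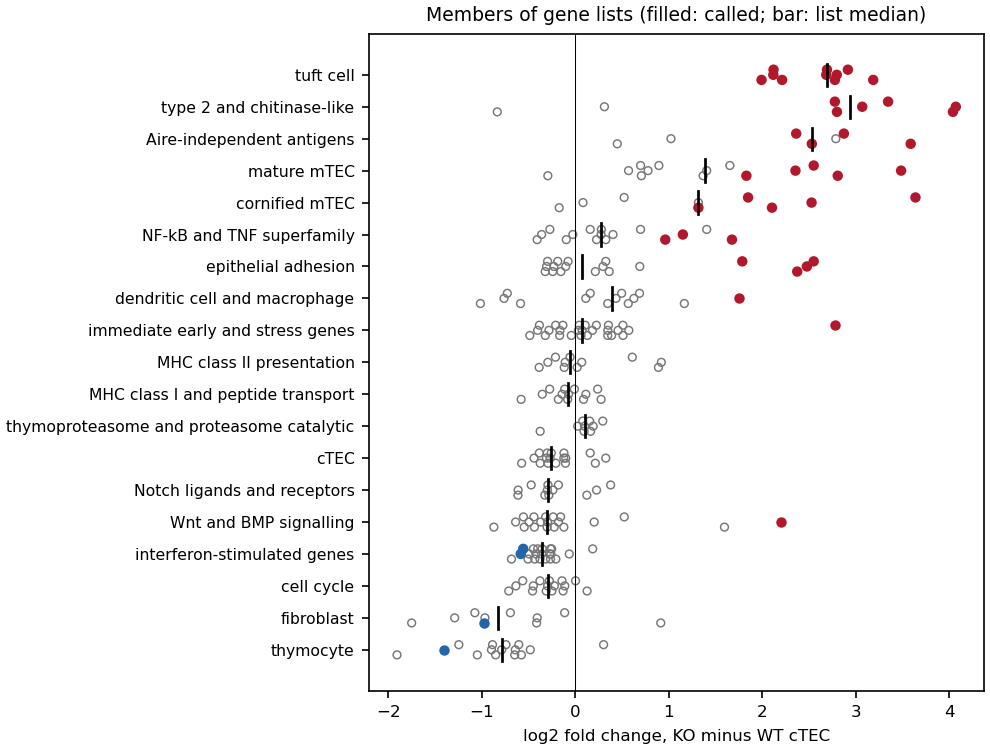
Log2 fold change, KO minus WT cTEC, of the tested members of 19 gene lists, filled where called, with a bar at each list's median. Tuft cell and chitinase-like medians lie at 2.69 and 2.94, antigen presentation and cTEC lists sit around 0, and interferon-stimulated genes lie just below it at -0.36.

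The named falls were mostly of genes at low levels. Tmem212, found in ciliated cells, had 0, 0 and 0.103 RPKM in KO cTEC, against 1.13, 2.36 and 1.09 RPKM in WT cTEC (log2 fold change -3.6, SE 0.449, limma adjusted p = 0.0098), and Fam183b, a ciliary gene, had 0, 0 and 0.0975 RPKM in KO cTEC, against 0.564, 2.31 and 1.51 RPKM in WT cTEC (-3.45, SE 0.54, adjusted p = 0.014). Both are near the floor in all KO libraries. Rag1, a subunit of the recombinase of immature lymphocytes, had 2.83, 2.77 and 2.51 RPKM in KO cTEC, against 4.73, 10.2 and 7.97 RPKM in WT cTEC (-1.4, SE 0.268, adjusted p = 0.023). It was the call among 15 thymocyte markers, whose median was -0.79, and 3 were called without WT replicate 1 or with quantile normalization. The share of all genes tested that was called lower was 0.616%. The Rag1 call was lost with no filter and without KO replicate 2, WT replicate 2 or WT replicate 3. C1s, a complement protease, had 10.4, 20.8 and 17.1 RPKM in KO cTEC, against 36.6, 33.5 and 38 RPKM in WT cTEC (-1.21, SE 0.227, adjusted p = 0.022), and C4b, a complement component, had 1.38, 1.92 and 2.13 RPKM in KO cTEC, against 4.88, 3.7 and 4.21 RPKM in WT cTEC (-1.2, SE 0.222, adjusted p = 0.021). Gbp10, an interferon-induced guanylate-binding protein, had 1.26, 1.13 and 1.82 RPKM in KO cTEC, against 4.47, 3.26 and 3.7 RPKM in WT cTEC (-1.4, SE 0.241, adjusted p = 0.017). No gene of this paragraph overlapped between the KO and WT cTEC libraries. Some of these falls were not particular to cTEC. Tmem212 averaged 0 RPKM in KO and 1.19 RPKM in WT mTEClo, and 0.018 and 1.4 RPKM in mTEChi. C1s averaged 30.3 RPKM in KO and 127 RPKM in WT mTEClo, and 2.01 and 7.68 RPKM in mTEChi. Gbp10, however, averaged 0.642 RPKM in KO and 0.508 RPKM in WT mTEClo, and 1.21 and 2.01 RPKM in mTEChi.

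Collagen Col3a1, the call among 10 fibroblast markers, had 11, 11.2 and 13.4 RPKM in KO cTEC, against 18.3, 24.6 and 28.4 RPKM in WT cTEC (log2 fold change -0.98, SE 0.17, limma adjusted p = 0.018). Without KO replicate 3, 5 of the list were called and without WT replicate 1 there were 2, whereas without KO replicate 2, WT replicate 2 or WT replicate 3 there were 0. With 3 KO libraries, 0.616% of all genes tested were called lower. The list's median was -0.83, and Dcn, its most abundant member, had 166, 389 and 392 RPKM in KO cTEC, against 402, 358 and 410 RPKM in WT cTEC, low in KO replicate 1 alone. Further named falls were the collagen Col23a1 (-1.21), the endocytic collagen receptor Mrc2 (-1.42), the glycosyltransferase Galnt13 (-1.55), Lrrc55 (-1.35), Prrt1 (-1.95) and the ciliary gene Ccdc153 (-1.82). With KO replicates 2 and 3, Col23a1, Mrc2, Galnt13 and Ccdc153 lost the call, with adjusted p-values of 0.052, 0.065, 0.061 and 0.083 by limma. With KO replicates 2 and 3 the rule added 3 genes that were not called with 3 KO libraries. The RNA component of RNase P, Rpph1, had 5.54, 0.472 and 0.623 RPKM in KO cTEC, against 11.6, 7.02 and 8.52 RPKM in WT cTEC (-3.8, adjusted p = 0.003; -2.76, adjusted p = 0.075 with 3 KO libraries). Rmrp, the RNA of a related enzyme, and Thbs4, a thrombospondin, had -2 (adjusted p = 0.016) and -2.13 (adjusted p = 0.016) with KO replicates 2 and 3.

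Calls among markers of other cells depended on single libraries. The lysozyme gene Lyz2 was the call among 14 dendritic cell and macrophage markers, with 118, 96.1 and 144 RPKM in KO cTEC, against 19.3, 54.3 and 40.3 RPKM in WT cTEC (log2 fold change 1.75, SE 0.345, limma adjusted p = 0.026), and was not called with KO replicates 2 and 3 (adjusted p = 0.052), nor without KO replicate 2 or WT replicate 3. It averaged 349 RPKM in KO mTEChi and 321 RPKM in WT mTEChi, while the macrophage receptor Csf1r had 1.66, 0.729 and 0.751 RPKM in KO cTEC and 0.486, 1.01 and 1.27 RPKM in WT cTEC. Of 6 B cell markers tested, Cd79b and Cr2 rose, with 0 calls without WT replicate 1 or WT replicate 3, and 1 without KO replicate 2 or WT replicate 2. Of 9 endothelial markers tested, Tek (2.8, adjusted p = 0.018) and Esam (1.31, adjusted p = 0.029) rose, and Cdh5 was at or under 0.342 RPKM throughout. The same replicates left 0 and 1 endothelial calls. Prdm1, a regulator of plasma cells that epithelium also uses, was the call among 5 plasma cell markers (1.5, adjusted p = 0.037). It was not called with KO replicates 2 and 3 (adjusted p = 0.076), nor without KO replicate 2 or any of WT replicates 1, 2 and 3. Egr3 was the call among 27 immediate early and stress genes (2.78, adjusted p = 0.019), and Fos, at 1171, 1572 and 2307 RPKM in KO cTEC and 2047, 1483 and 1962 RPKM in WT cTEC, overlapped. That list had 0 calls without WT replicate 1, without WT replicate 3 or with no filter, and 2 without WT replicate 2. Of all genes tested, 6.1% were called higher.

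KO replicate 1 is described by the genes in which it was farthest from the other 5 libraries. Defb6, a defensin, had 16.1 RPKM in KO replicate 1, 2.49 and 2.9 RPKM in KO replicates 2 and 3, and 0.221, 0.195 and 0.746 RPKM in WT cTEC. Crhbp, which binds corticotropin-releasing hormone, had 5.15 RPKM in KO replicate 1, 0.652 and 0.972 RPKM in KO replicates 2 and 3, and 0.277, 0.359 and 0.157 RPKM in WT cTEC. Fgf21, a growth factor best known from liver, had 20.4 RPKM in KO replicate 1, 5.9 and 3.24 RPKM in KO replicates 2 and 3, and 1.04, 1.53 and 2.41 RPKM in WT cTEC. These 3 genes averaged 39, 63.8 and 314 RPKM in KO mTEChi. At the other end, Mgst1, a glutathione transferase, had 8.72 RPKM in KO replicate 1, 24.2 and 22.5 RPKM in KO replicates 2 and 3, and 24, 28.9 and 24.6 RPKM in WT cTEC. Mgp, matrix Gla protein, had 141 RPKM in KO replicate 1, 310 and 334 RPKM in KO replicates 2 and 3, and 426, 446 and 353 RPKM in WT cTEC. Mgp averaged 5.29 RPKM in KO mTEChi and 28.1 RPKM in WT mTEChi, but 294 RPKM in KO mTEClo and 793 RPKM in WT mTEClo. Mgst1 averaged 7.57 RPKM in KO mTEChi and 22.3 RPKM in WT mTEChi, and 22.6 RPKM in KO mTEClo and 52.2 RPKM in WT mTEClo.

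The genotype effect in cTEC was set against that in the medulla in a fit of all 18 libraries. The difference of the effects passed the test for 37.4% of genes higher and 5.72% lower in cTEC than in mTEChi, and for 4.17% higher and 0.883% lower in cTEC than in mTEClo; the split against mTEChi turned with quantile normalization, to 3094 genes higher and 3979 lower. In the shares that follow, cTEC calls come from the fit of the 6 cTEC libraries and medullary calls from the fit of all 18. The fit of all 18 called 2591 genes higher and 1403 lower in KO cTEC, so the shares compare unlike fits. Of the 980 genes called higher in cTEC, 496 (50.6%) were also called higher in KO than WT mTEClo, which is 32.8% of the 1513 genes called there (9.41% of all tested). In mTEChi 265 (27%) were called higher, 15% of the 1765 calls there, and 292 (29.8%) lower, 3.89% of the 7514 calls there, beside 11% and 46.7% of all genes tested. Of the 99 genes called lower in cTEC, 60 (60.6%) were also lower in KO mTEClo, 4.02% of the 1493 called there (9.29% of all tested), and 81 (81.8%) in KO mTEChi, 1.08% of the 7514 called there (46.7% of all tested). For Chi3l4 and Chi3l3 the difference between the effects in cTEC and mTEClo was 0.89 (limma adjusted p = 0.06) and -0.11 (adjusted p = 0.92) on the log2 scale, and that between cTEC and mTEChi 4.79 and 4.31 (adjusted p = 1.3e-08 and 2.2e-07). Skint2, by contrast, rose in cTEC by 4.01 more than in mTEClo on the log2 scale.

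Some genes rose in KO cTEC to levels above both KO medullary means: 27 of the 980, 20 of which have ordinary gene symbols and were listed after their values were seen. In 953 of the 980 a KO medullary mean was higher, compared with 9851 of the 16077 genes tested. Upk1b, a plaque protein of bladder epithelium, had 11.8, 12.8 and 17.3 RPKM in KO cTEC, against 4.35, 5.85 and 8.3 RPKM in WT cTEC, and averaged 4.91 RPKM in KO mTEClo and 0.118 RPKM in KO mTEChi. Cxcl17, a mucosal chemokine, had 22.8, 15.2 and 28.8 RPKM in KO cTEC, against 4.71, 9.41 and 8.19 RPKM in WT cTEC, and averaged 9.58 RPKM in KO mTEClo and 0.669 RPKM in KO mTEChi. Ecm1, an extracellular matrix protein, had 42.7, 43.2 and 67.3 RPKM in KO cTEC, against 14.9, 32 and 21.5 RPKM in WT cTEC, and averaged 21.7 RPKM in KO mTEClo. KO replicate 3 was the highest library in all 3 genes, and none of their groups overlapped. Others were the surfactant protein Sftpd, the water channel Aqp5, the immunoglobulin transporter Pigr, the keratin Krt4 and the transcription factor Sox2. In that order their KO cTEC means were 14.9, 10.1, 33.6, 6.76 and 1.54 RPKM. Their KO mTEClo means were 7.83, 8.63, 30, 4.58 and 1.47 RPKM, so Aqp5, Pigr and Sox2 were close to KO mTEClo. The rule did not use WT medullary means. In WT mTEChi these genes averaged 31.8, 4.12, 39, 12 and 1.23 RPKM, so Sftpd, Pigr and Krt4 were above KO cTEC there. Upk1b, Cxcl17 and Ecm1 averaged 5.33, 8.92 and 22.3 RPKM in WT mTEChi. Gsdmc2, the listed gene farthest above the KO medullary means, had 1.79, 1.4 and 1.46 RPKM in KO cTEC. It averaged 8.36 RPKM in WT mTEChi. Sox2 had 1.51, 0.851 and 2.26 RPKM in KO cTEC, against 0.272, 0.42 and 0.377 RPKM in WT cTEC (log2 fold change 1.76, SE 0.379, limma adjusted p = 0.034). With KO replicates 2 and 3, Sox2, Pigr and Ecm1 lost the call, with adjusted p-values of 0.069, 0.071 and 0.062 by limma.

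The number of genes detected at 0.1 RPKM or more was 16061 ± 219 in KO cTEC and 15689 ± 236 in WT cTEC (SD, n = 3 each), a difference of 373. With 3 against 3 libraries the exact two-sided permutation test gave p = 0.1, the smallest it allows. Counting every gene above 0 turned the direction, with a difference of -490. Around Aire, 241 genes within 10 Mb were tested, of which 8 were called higher and 0 lower in the fit of 3 KO libraries by limma, 3.32% compared with 6.71% of all genes tested. Dnmt3l, whose interval overlaps that of Aire, is among those called higher.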

How the data were processed

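RNA from cTEC, mTEClo and mTEChi of Aire KO and WT mice was sequenced on an Illumina HiSeq 2000, and 1 table per library was deposited. The RPKM values were made by the authors. The value column after RPKM is a signal, the aligned bases per gene, also as deposited, and gave the depth here. The submitters' processing notes name CASAVA 1.8.2 and the build mm10; aligner, annotation and strand handling: not given in the sources used here. Whole read counts could not be recovered, so no count test was run and no counting intervals are given. Without strand, overlapping genes cannot be told apart.

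Values were tested as log2(RPKM + 0.1) with limma 3.58.1 (trend) in R 4.3.3, on genes at 0.1 RPKM or more in 3 of the 6 cTEC libraries, with Benjamini-Hochberg adjusted p under 0.05 over all 16077. Differences between populations used 6 group means over 18 libraries. The test was checked on simulated data, in which all 6 libraries were independent and had a spread taken from the WT cTEC libraries. No simulated library stood apart as KO replicate 1 does, so the check does not cover that case. Named genes were Aire, the 12 largest rises and 12 largest falls without overlap and with a mean of 1 RPKM, 6 and 6 more with KO replicates 2 and 3, 10 extremes each way of KO replicate 1, and members of lists. The comparison and the gene lists were chosen with earlier results of these data known. Alternatives varied the pseudocount, filter, scaling, spread, libraries and blocking.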

Additional observations from a re-analysis of the deposited data

Results flagged for a closer look

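The genotype effect in cTEC was set against that in the medulla by a test of the difference itself (limma on all 18 libraries, adjusted p under 0.05). It was higher in cTEC than in mTEChi for 6019 genes and lower for 920, a split that turned with the scaling, since quantile normalization gave 3094 and 3979. Against mTEClo, it was higher for 670 genes and lower for 142. Of 25 named genes tried, 13 differed from mTEClo and 19 from mTEChi, beside 4.17% higher and 0.883% lower of all genes against mTEClo and 37.4% and 5.72% against mTEChi. All but Aire were picked for large changes in these cTEC libraries, which enter the difference too, so these counts and sizes are a description and support nothing. The values that follow are log2 differences, the effect in cTEC minus that in the medullary population.

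Aire differed by 2.27 from mTEClo and 2.82 from mTEChi. Among skin genes, Calm4 differed by 3.86 from mTEClo and 5.46 from mTEChi, Crct1 by 3.76 and 6.43, and Sprr2d by 4.58 and 7.32, while Sprr4 differed by 7.64 from mTEChi. Skint2 differed by 4.01 from mTEClo and 3.32 from mTEChi, Ceacam10 by 3.72 and 3.87, Spock3 by 3.08 and 2.55, Calcb by 2.95 and 3.06, and Il13 by 2.05 and 2.10. Chi3l4, Dnmt3l and Ripply2 differed from mTEChi, by 4.79, 2.18 and 2.72.

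Of the genes that fell in KO cTEC, Fam183b differed by -2.62 from mTEClo. Prrt1 differed by -2.55 from mTEClo and -2.10 from mTEChi, and Gbp10 by -1.68 and -0.70. Mrc2 differed by -1.84 from mTEClo and by 2.0 from mTEChi. Ccdc153, Col23a1 and C4b differed from mTEChi by 1.28, 1.81 and 1.78, which means that their fall in KO cTEC was smaller than that in KO mTEChi.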

How the results depend on the processing

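The number of genes called was unstable, and its direction, more rises than falls, held under every alternative run for it. Against 980 rises and 99 falls, a pseudocount of 1 left 65 falls, no filter gave 517 rises and 52 falls, quantile normalization 210 falls, housekeeping centring 222 falls, library weights 1551 and 419, and all 18 libraries in 1 fit 2591 and 1403. Leaving out each library gave 102 to 1190 rises and 3 to 257 falls. For KO replicates 2 and 3, no filter gave 15 rises and 2 falls, quantile normalization 157 falls, housekeeping centring 139 falls and all 18 libraries 2013 and 759. Leaving out a further library gave 1 to 844 rises and 0 to 170 falls, the lowest without KO replicate 2, where the lone KO library is assumed to vary like the WT. The difference in effect from mTEChi gave 3094 higher and 3979 lower with quantile normalization and 3449 and 2807 with housekeeping centring. That from mTEClo ran from 409 to 1215 higher and 100 to 298 lower over the libraries left out, with 409 higher without WT replicate 1 and 1215 and 298 without KO replicate 3. Genes above 0 RPKM gave a difference of -490, against 373 at 0.1 RPKM. The causes were not tested.

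With the replicate block 4 genes rose and 0 fell by limma (2456 and 1270 had an unadjusted p under 0.05 without it), and Aire had 3.49 with an adjusted p of 0.077. Same-numbered KO and WT libraries had correlations of -0.368, -0.077 and -0.101 in their deviations. With 3 libraries a group, these values cannot decide whether same-numbered libraries were handled together, and the labels state no pairing. Aire was 3.04 (adjusted p = 0.055) without WT replicate 1 and ran from 2.95 to 3.93 over the libraries left out. Of 65 called genes followed singly, none changed sign under the alternatives, and 63 lost the call with the block, 45 without WT replicate 3 and 38 without WT replicate 1. With 3 libraries a group and no read counts, differences at low levels have little support.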
